A study of Homo sapiens with 2 samples.

Results

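Of 9 miRNAs typical of erythroid, myeloid or lymphoid cells, 6 had a signal under both hypoxia and normoxia in MKN1, an established human gastric cancer cell line. Another 2 had a low signal under hypoxia only, and 1 had none on either array. The 9 are hsa-miR-144 and hsa-miR-451 (erythroid), hsa-miR-142-3p, hsa-miR-142-5p and hsa-miR-223 (myeloid or shared by blood lineages), and hsa-miR-146a, hsa-miR-146b-5p, hsa-miR-150 and hsa-miR-155 (lymphoid or raised in immune activation). They were chosen by name from the 1329 probes of the array, which cover 879 mature miRNAs and 450 precursors, with the signals of both arrays already known. Their levels and fold changes are therefore a description. The design held 1 array of cells kept in 1% O2 for 24 h (hypoxia) and 1 array of cells kept under normoxia for the same time. Both cultures grew in RPMI-1640 with 10% fetal bovine serum, and their total RNA was labelled with biotin. The comparison asked which miRNAs differ between the conditions, and with 1 array per condition no test between them was possible.

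A miRNA is cut from a hairpin precursor and guides the silencing complex to mRNAs mainly through its seed, the bases next to its 5′ end. The erythroid miR-144 and miR-451 are made from a single transcript during red cell maturation. miR-142 is expressed across blood lineages, miR-223 is typical of granulocytes and monocytes, and miR-150 of resting mature B and T lymphocytes. miR-155, from the transcript MIR155HG (BIC), and miR-146a rise when lymphocytes or macrophages are activated, miR-146a under NF-κB as a brake on TRAF6 and IRAK1.

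The mature sequences are shown to mark the seeds and because miR-146a and miR-146b-5p are nearly identical. RefSeq sequences on GRCh38.p14 were matched for 7 of the 9 miRNAs, and the capitals mark the seed, bases 2 to 8.
hsa-miR-144 (miR-144-3p, chr17:28861548-28861567, minus strand): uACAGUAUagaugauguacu
hsa-miR-142-3p (chr17:58331245-58331267, minus strand): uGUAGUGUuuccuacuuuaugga
hsa-miR-142-5p (chr17:58331283-58331303, minus strand): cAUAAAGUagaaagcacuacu
hsa-miR-223 (miR-223-3p, chrX:66018937-66018958, plus strand): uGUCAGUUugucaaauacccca
hsa-miR-146a (miR-146a-5p, chr5:160485372-160485393, plus strand): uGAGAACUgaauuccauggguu
hsa-miR-146b-5p (chr10:102436520-102436542, plus strand): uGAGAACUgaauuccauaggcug
hsa-miR-155 (miR-155-5p, chr21:25573983-25574006, plus strand): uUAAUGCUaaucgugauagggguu

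The 7 sequences held 6 different seeds, and only miR-146a and miR-146b-5p shared one. Over the 22 positions that both have, counted from the 5′ end, 20 were identical and 2 differed from miR-146a to miR-146b-5p (G18A and U21C). The probe sequences of the array were not used here, so how far each of these probes binds the other miRNA was not tested. miR-142-3p and miR-142-5p are the arms of 1 hairpin, whose gene MIR142 overlaps the long non-coding RNA genes MIR142HG and TSPOAP1-AS1. MIR155, MIR223 and MIR146A lie inside the long non-coding RNA genes MIR155HG, MIR223HG and MIR3142HG, and MIR451A and MIR144 are near neighbours on chromosome 17. The annotation used gives gene spans only, so exons and introns were not assigned.

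All values below are normalized signal intensities from the authors, on a linear scale. No listed signal was under 20, other probes were given as 0, and low signals had the spacing of means of 3 spots. The hypoxia array listed 837 probes with a total signal of 1001867, and the normoxia array listed 665 probes with a total of 1149819. Signals of different probes depend on how well each probe binds, so fold changes were taken within a probe. Below, signals of different probes are also set side by side, and the gap between them is not a measure of amounts. In total RNA from a culture, a signal in a few cells and a low signal in all cells cannot be told apart.

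The labelled cell type was set against markers of epithelium. All 7 epithelial miRNAs, the miR-200 family (miR-200a, miR-200b, miR-200c, miR-141 and miR-429), miR-203 and miR-205, had a signal on both arrays, as did 3 of 4 gastrointestinal miRNAs (miR-192, miR-194 and miR-215). The fourth, miR-375, had 70.7 under hypoxia and was listed at 0 under normoxia. Of all 879 mature probes, 58% had a signal on both arrays, as did all 13 miRNAs of a further blood cell list given below. These counts therefore do not tell epithelium from blood cells.

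The probes of miR-144 and miR-451 had no signal under normoxia and at most a low one under hypoxia. miR-144 had a signal of 22.7 under hypoxia, 1.13 times the lowest listed signal, and was listed at 0 under normoxia. Its other strand, miR-144*, had 28.3 under hypoxia and was listed at 0 under normoxia, and its precursor was listed at 0 on both arrays. miR-451, which is cut by AGO2 without Dicer, was listed at 0 on both arrays. The precursor of miR-451 had 27.3 under hypoxia and was listed at 0 under normoxia. Thus none of these 5 probes had a signal under normoxia, and the 3 with a signal under hypoxia lay between 22.7 and 28.3. No fold change can be given against a probe listed at 0, and none of these probes is marked as detected in the deposited table. Over the 23 probes of these hairpins, that mark was given to exactly those with a signal on both arrays. It therefore repeats the listing and is no separate evidence.

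**Figure D1:**
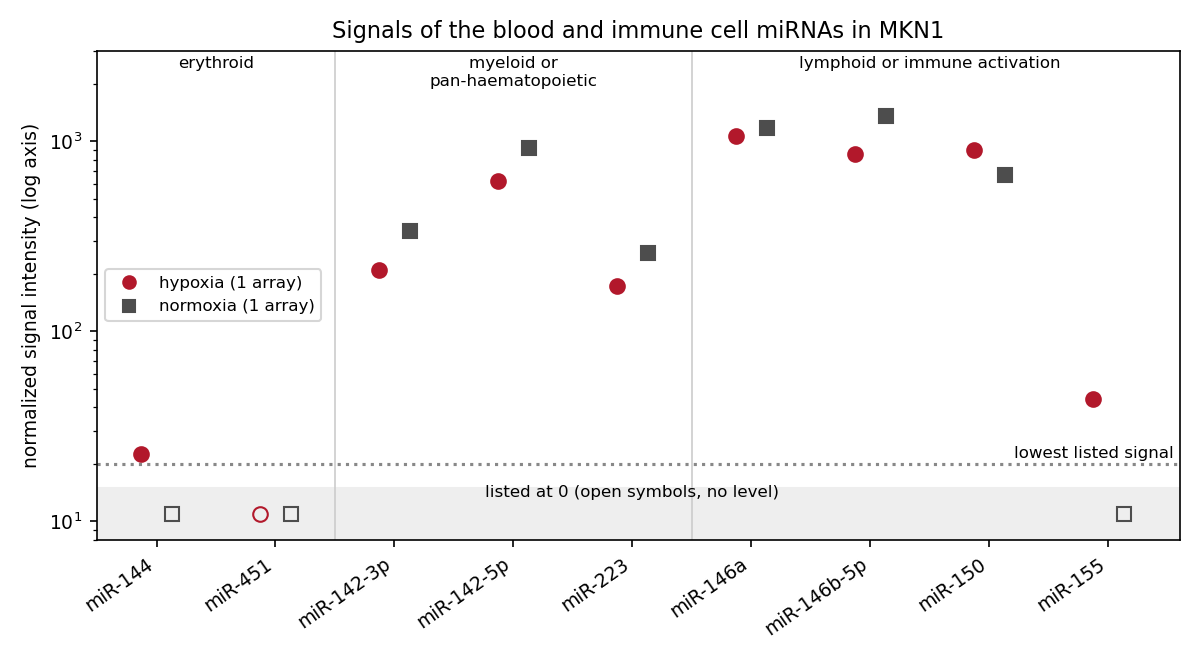
Normalized signal intensity (log axis) of the 9 miRNAs under hypoxia (red circles, left of each pair) and normoxia (grey squares), with 1 array each and no error bars. Open symbols in the shaded strip are probes listed at 0. Of the 6 miRNAs with a signal on both arrays, 5 were lower under hypoxia and miR-150 was higher, while miR-144 and miR-155 had only a hypoxia signal, of 22.7 and 44.3.

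The myeloid miRNAs had a signal on both arrays and were lower under hypoxia. miR-142-3p had 209 under hypoxia and 338 under normoxia, a log2 fold change of -0.69 (1.62-fold lower). miR-142-5p had 621 under hypoxia and 921 under normoxia (log2 fold change -0.57, 1.48-fold lower). The mir-142 precursor had 46.3 under hypoxia and 74.3 under normoxia (-0.68, 1.60-fold lower). These are low signals, 2.32 and 3.72 times the lowest listed one, and with 50 added to both the log2 fold change was -0.37. With the deposited scaling, the arms were thus 0.12 apart on the log2 scale and the precursor 0.011 from miR-142-3p. The precursor was over 2-fold lower after quantile normalization (-1.13, against -0.86 for miR-142-3p and -0.60 for miR-142-5p) and without the trend of fold change with brightness described below (-1.05, against -0.90 and -0.61). miR-223 had 174 under hypoxia and 258 under normoxia (-0.57, 1.49-fold lower), while its other strand and its precursor were listed at 0 on both arrays. The differences shrank after scaling on the 75th percentile of each array's listed signals. They were then -0.14 for miR-142-3p, -0.014 for miR-142-5p, -0.13 for the mir-142 precursor and -0.018 for miR-223.

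The lymphoid and immune activation miRNAs did not move together. miR-146b-5p had 863 under hypoxia and 1364 under normoxia (log2 fold change -0.66, 1.58-fold lower, or -0.11 with the 75th percentile of listed signals). miR-146a, with the same seed, had 1069 under hypoxia and 1172 under normoxia (-0.13, 1.10-fold lower), the smallest difference of the 6 and the only one whose direction turned with the scaling. It was 0.42 after scaling on the 75th percentile of each array's listed signals and 0.066 after scaling on the total signal. miR-150, known to restrain MYB in lymphocytes, was the one miRNA of the 9 with signals on both arrays that was higher under hypoxia, with 903 under hypoxia and 666 under normoxia (0.44, 1.36-fold higher). It was higher under each of the 10 other ways of processing tried for single miRNAs, between 0.30 and 0.99. The other strand of miR-150 was listed at 0 on both arrays, and its precursor had 23.3 under hypoxia and was listed at 0 under normoxia. Neither is marked as detected in the deposited data.

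The probes for the other strands and precursors of the miR-146 genes did not follow miR-146a and miR-146b-5p. miR-146b-3p, the other arm of the mir-146b hairpin, had 1177 under hypoxia and 1073 under normoxia (log2 fold change 0.13, or -0.0026 after median centring), which is 0.79 from that of miR-146b-5p. The mir-146b precursor was listed at 0 on both arrays. The mir-146a precursor had 252 under hypoxia and 171 under normoxia (0.56, 1.48-fold higher), which is 0.69 from mature miR-146a. It was 1.12, over 2-fold, with the 75th percentile of listed signals, and 0.32 without the trend. Across the array, the log2 fold changes of 85 measured pairs of a precursor and a mature probe differed by a median of 0.36. miR-146a* was listed at 0 on both arrays.

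Of the miR-155 probes, the precursor probe had a signal on both arrays and the mature probe under hypoxia only. Mature miR-155 had 44.3 under hypoxia, 2.22 times the lowest listed signal, and was listed at 0 under normoxia. miR-155* was listed at 0 on both arrays. Neither of these probes is marked as detected in the deposited data, whereas the mir-155 precursor is, and here too the mark only followed a signal on both arrays. The mir-155 precursor had 6064 under hypoxia and 8518 under normoxia (log2 fold change -0.49, 1.40-fold lower), 303 times the lowest listed signal under hypoxia and 426 times under normoxia. Once the dependence of fold change on brightness, described below, was removed, the precursor's log2 fold change was -0.16, and it turned to 0.064 with the 75th percentile of listed signals and 0.0028 after quantile normalization. Of 374 precursor probes with a mature probe of the same name on the array, 128 had a signal on both arrays, and for 39 of these no mature probe of that name had one. The match was by exact name, so the mir-26a-2, mir-218-1 and mir-218-2 precursors were compared only with a strand named with a star. The mir-155 precursor is 1 of those 39.

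**Figure D2:**
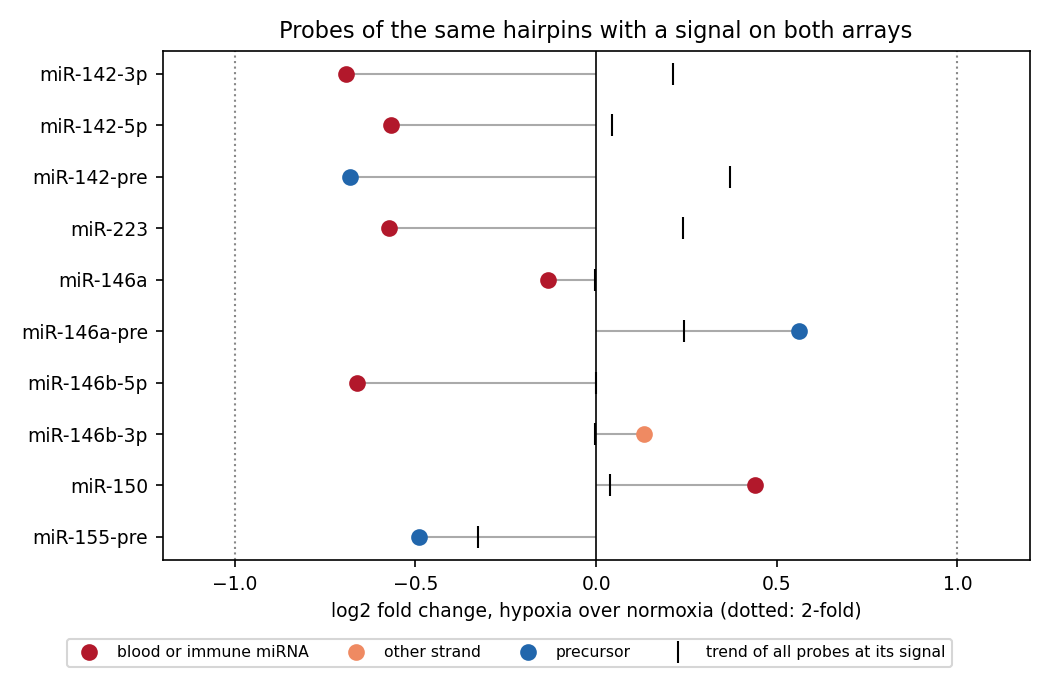
Log2 fold change of hypoxia over normoxia (horizontal axis) for the 10 probes of these hairpins with a signal on both arrays, with 1 array per condition. Values are those of the deposited scaling. Red points are the blood and immune miRNAs, orange the other strand, blue the precursors, and black ticks the trend of all 663 probes at the same signal. The 3 mir-142 probes lie between -0.69 and -0.57, whereas the miR-146 probes lie on both sides of 0, and none of the 10 reaches 2-fold with this scaling. With other scalings the mir-142 precursor (-1.13 and -1.05) and the mir-146a precursor (1.12) do.

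Seen as a list, 5 of the 6 miRNAs with a signal on both arrays were lower under hypoxia and 1 was higher (4 and 2 after scaling on the total signal or on the 75th percentile of listed signals), with a median log2 fold change of -0.57. Among all 510 mature miRNAs with a signal on both arrays, 46.5% were lower, and their median was 0.076. None of the 6 was over 2-fold higher, against 9.02% of the mature miRNAs, or over 2-fold lower, against 2.35%. At 1.5-fold, 2 of the 6 were lower, miR-142-3p and miR-146b-5p, against 12.7% of the mature miRNAs, and none was higher, against 21.6%. With 6 members chosen with the results known, these shares describe the list and were not tested.

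The fold change on these arrays varied with brightness, dim probes being higher under hypoxia and bright probes lower. The trend stood at 0.21 on the log2 scale at the signal of miR-142-3p, 0.24 at that of miR-223, 0.044 at that of miR-142-5p, 0.00029 at that of miR-146b-5p and -0.0025 at that of miR-146a. The differences from it were -0.90 for miR-142-3p, -0.81 for miR-223, -0.61 for miR-142-5p, -0.66 for miR-146b-5p, -0.13 for miR-146a and 0.40 for miR-150. Thus 5 of the 6 lay below the trend, and the dimmer miR-142-3p and miR-223 lay farthest below it. In the range of mean signal spanned by the 6, there were 178 mature miRNAs, themselves included, of which 92 were higher and 86 lower under hypoxia, and their median was 0.062 with quartiles of -0.37 and 0.46.

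**Figure D3:**
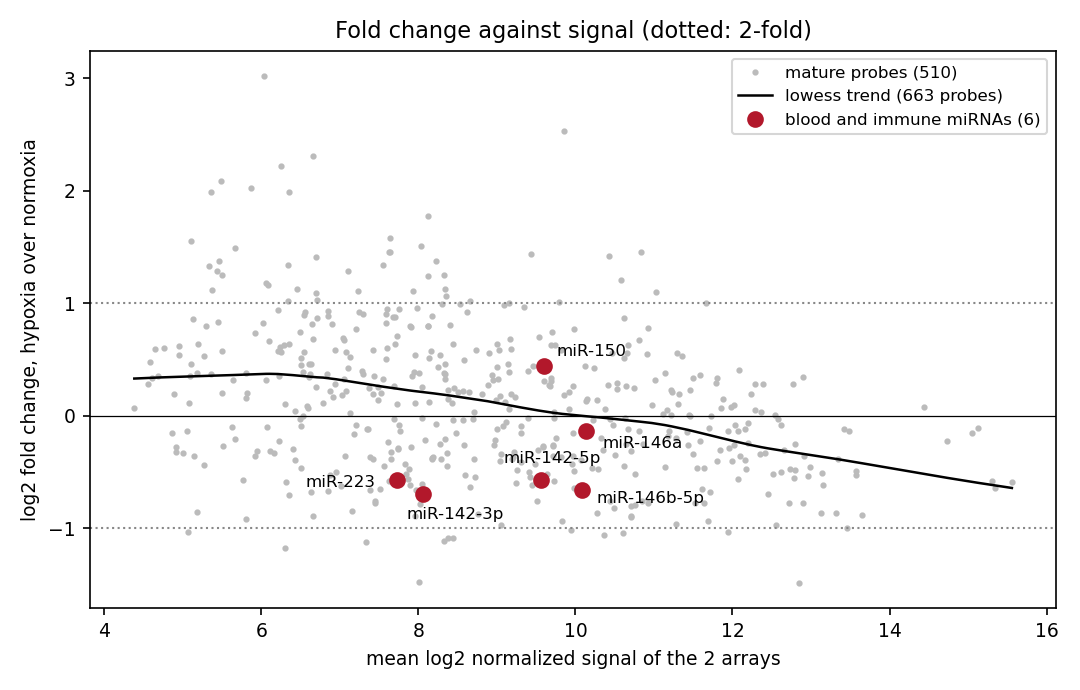
Log2 fold change of hypoxia over normoxia (vertical axis) against the mean log2 normalized signal of both arrays (horizontal axis), with 1 grey point per mature miRNA (510), the lowess trend of all 663 probes as a line, and the 6 blood and immune miRNAs in red. miR-150 lies above the trend and the other 5 lie below it, all within the dotted 2-fold lines.

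No replicate array gives the error of these differences. Arms of the same hairpin were compared across the array, to place the distance between the arms of mir-142 and mir-146b. Over 98 hairpins with both strands listed on both arrays, the log2 fold changes of the strands differed by a median of 0.59, and by 1.25 at the 90th percentile. The miR-142 arms differed by less than 86 of these pairs did, and the miR-146b arms differed by less than 30 did. The strands of a hairpin can also differ in the cells, so this is no measure of technical error, and it gives no scale for the fold change of a single probe.

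Probes with a signal under hypoxia only were common on the array. They made up 9.78% of the 879 mature probes, and 58% had a signal on both arrays, against 2 and 6 of the 9 blood and immune miRNAs. By contrast, 1 mature probe had a signal under normoxia only. The 86 mature probes with a hypoxia signal only had a median of 30, and miR-155 (44.3) lay above it and miR-144 (22.7) below it. With a signal counted only above 50, neither miR-144 nor miR-155 had one, and the 6 others kept theirs on both arrays. Over the other strands and precursors of these hairpins, 4 of 14 probes had a signal on both arrays, 3 under hypoxia only and 7 on neither. The 8 precursors among them had 3 on both arrays, 2 under hypoxia only and 3 on neither. Over all 450 precursor probes, 153 had a signal on both arrays, 88 under hypoxia only and 208 on neither.

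**Figure D4:**
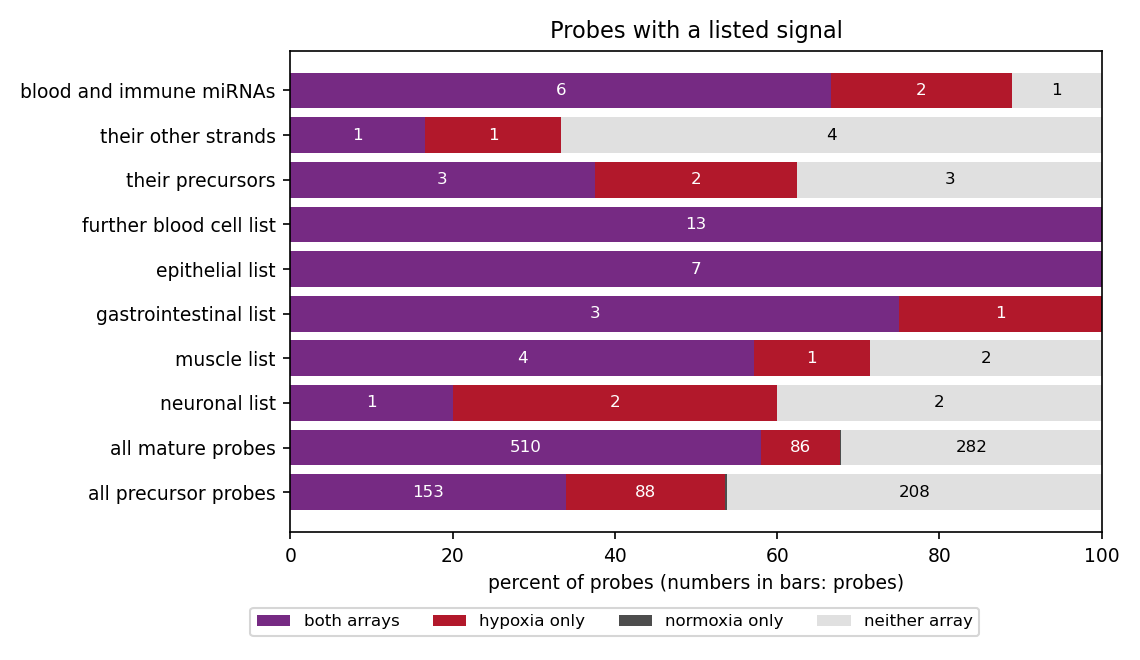
Percent of probes (horizontal axis) with a signal on both arrays, under hypoxia only, under normoxia only or on neither array, for the blood and immune miRNAs, their other strands and precursors, the comparison lists and the whole array; numbers in the bars count probes. All 13 further blood cell miRNAs and all 7 epithelial miRNAs had a signal on both arrays, against 6 of the 9 blood and immune miRNAs and 1 of 5 neuronal miRNAs. Of all mature probes, 58% had one.

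A further list held 13 miRNAs known from blood or vessel-lining cells, several of them also expressed in other tissues. All 13 had a signal on both arrays, against 58% of the 879 mature probes. Of the 13, 10 were lower and 3 higher under hypoxia, none by 2-fold, with a median log2 fold change of -0.45. Over all mature miRNAs with a signal on both arrays, 46.5% were lower, 2.35% over 2-fold lower and 9.02% over 2-fold higher, and the median was 0.076. After scaling on the 75th percentile of listed signals, 4 of the 13 were lower and 9 higher with a median of 0.10, and the median of all probes was 0.69. Erythroid miR-486-5p had 162 under hypoxia and 242 under normoxia, and its other arm, miR-486-3p, had 1089 under hypoxia and 1914 under normoxia (1.76-fold lower, the largest difference in the list). miR-126, typical of endothelium and platelets, had 492 under hypoxia and 741 under normoxia, whereas its other strand miR-126* had 619 under hypoxia and 540 under normoxia. The lymphoid miR-181 family, miR-181a to miR-181d, was lower throughout by 1.29-fold to 1.69-fold, but with that 75th percentile scaling only miR-181c was lower. Higher under hypoxia besides miR-126* were miR-342-5p (595 under hypoxia and 441 under normoxia) and miR-424 (1758 under hypoxia and 1460 under normoxia).

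Other tissue-restricted miRNAs were set beside the blood and immune miRNAs. Of 7 muscle miRNAs, 4 had a signal on both arrays, all higher under hypoxia with a median of 0.83 (3 higher and 1 lower after quantile normalization or without the trend), and miR-206 was over 2-fold higher, with 442 under hypoxia and 155.3 under normoxia. Another muscle miRNA, miR-499-5p, had 39 under hypoxia and was listed at 0 under normoxia. Of 5 neuronal miRNAs found by name, only miR-9 had a signal on both arrays (665 under hypoxia and 952 under normoxia), while miR-124 had 31.3 and miR-153 had 27 under hypoxia and both were listed at 0 under normoxia. The 3 gastrointestinal miRNAs with a signal on both arrays were all lower, with a median of -0.45 (2 higher and 1 lower, with a median of 0.11, after scaling on the 75th percentile of listed signals), and liver miR-122 had 1720 under hypoxia and 1171 under normoxia (0.55, or 1.11 with that scaling). The 7 epithelial miRNAs had a median of -0.090, with 3 higher and 4 lower, from 0 higher without the trend to 7 higher with the 75th percentile of listed signals. The differences between the lists were not tested.

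**Figure D5:**
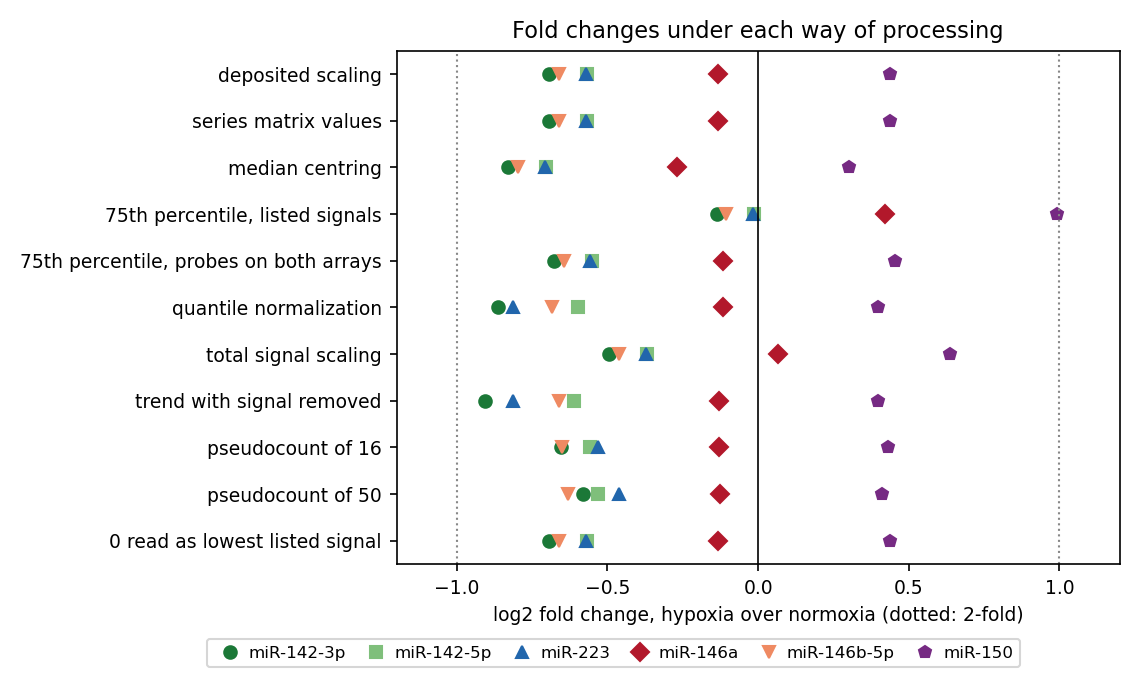
Log2 fold change of hypoxia over normoxia (horizontal axis) of the 6 miRNAs with a signal on both arrays under the deposited scaling (top row) and 10 other ways of processing, with 1 symbol per miRNA. miR-150 lies right of 0 and miR-142-3p, miR-142-5p, miR-223 and miR-146b-5p lie left of 0 in every row, miR-146a changes side in 2 rows, and none reaches the dotted 2-fold lines. The rows for the series matrix values, the pseudocounts and 0 read as the lowest listed signal could not change a side.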

How the data were processed

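Total RNA of MKN1 cells under hypoxia or normoxia was hybridized to a GenoSensor human miRNA array, 1 per condition. The authors read the spots in GeneSpring GX and normalized each array on its global signal, and deposited these normalized intensities on a linear scale. Signals of 0 in one deposited table were empty cells in the other for 491 of 492 hypoxia and 664 of 664 normoxia values. The same table holds the authors' ratio and p-value per probe, which were not used, and a detection mark. Members and lists were chosen with earlier results of these data known. All 9 members and the other strands and precursors of their hairpins were named. Comparison lists were given by counts, with examples chosen after their values were seen, and 1 neuronal miRNA was not matched by name. Fold changes were taken without pseudocount for probes with a signal on both arrays. The threshold was 2-fold, as in the study's methods, without a test. The trend was a lowess of span 0.4, checked on a simulated straight-line trend with less scatter than these arrays and no changed probes. How well it follows the dependence on brightness in these data was not tested. Alternatives were other scalings, pseudocounts of 16 and 50, filters and thresholds. Sequences came from RefSeq (GRCh38.p14). Python 3.11.15, numpy 2.4.6, pandas 2.3.3, statsmodels 0.14.6 and matplotlib 3.10.9 were used.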

Additional observations from a re-analysis of the deposited data

How the results depend on the processing

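No paired analysis was possible because each condition had a single array. Each value is limited by that number of arrays. The cause of shifts between scalings was not tested. The median stayed below 0 under 11 alternatives (over the 6 miRNAs in 9 of them, over 8 with signals of 0 read as 20 and over 5 with both signals above the array median), from -0.71 after median centring to -0.016 after scaling on the 75th percentile of listed signals, which differ in number between the arrays. With that percentile taken over probes with a signal on both arrays, chosen after seeing the data, it was -0.55. The other deposited copy of the same values, the pseudocounts and the reading of 0 as 20 could not bring the median above 0. Only miR-146a turned, to 0.42 with the 75th percentile of listed signals and 0.066 with the total signal. None of the 6 passed 2-fold under any alternative. With signals of 0 read as 20, 1 of 8 members was over 2-fold higher (miR-155), and at 1.5-fold, 2 of the 6 were lower. With a signal counted only above 50, the members with a hypoxia signal only fell to 0, as did their other strands and precursors (chosen after seeing the data). The other strands and precursors with a signal on both arrays fell from 4 to 3, as the mir-142 precursor dropped out. Over all probes, the counts over 2-fold, 64 higher and 14 lower, became 47 and 32 after median centring, 205 and 1 with the 75th percentile of listed signals, 39 and 30 after quantile normalization, 104 and 3 with the total signal, 37 and 27 with the trend removed, 24 and 6 with a pseudocount of 50, 99 and 15 with 0 read as 20, 12 and 9 with both signals above the array median, 158 and 83 at 1.5-fold, and 11 and 1 at 3-fold. The median of all probes moved to 0.69 with the 75th percentile of listed signals and 0.33 with the total signal, against 0.14 as deposited.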

Other observations

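Besides the mir-155 precursor, another 9 precursor probes had signals over 1000 on both arrays while no mature probe of the same name had a signal on both. They were picked after their values were seen. The mir-627 precursor had 5316 under hypoxia and 4787 under normoxia, and the mir-569 precursor had 4224 under hypoxia and 3015 under normoxia, and both mature miRNAs were listed at 0 on both arrays. The mir-662 precursor had 3365 under hypoxia and 5445 under normoxia (1.62-fold lower), and its mature miRNA had 39 under hypoxia and was listed at 0 under normoxia.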
